A study of Mus musculus with 7 samples.

Results

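Chemokines are small secreted proteins that direct the migration of cells carrying the matching G protein-coupled receptors. CC chemokines (Ccl) mostly attract monocytes, eosinophils and lymphocytes, whereas CXC chemokines (Cxcl) attract neutrophils or, when induced by interferon, activated T cells. In skeletal muscle they are produced by resident macrophages, fibroblasts, endothelial cells and stressed myofibers, and they recruit leukocytes after injury. The genes described here were all genes on the array whose symbol reads Ccl, Ccr, Cxcl or Cxcr followed by a number and, for some, a letter. There were 49 such genes, measured by 62 probes, among 31131 genes and 39429 probes in all.

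Quadriceps RNA of C57BL/6 mice was hybridized to 7 single-dye Agilent arrays, 4 from mice of genotype WT and 3 from AR113Q mice, 1 mouse per array. AR113Q mice are knock-in mice that carry an expanded CAG repeat, the mutation of spinal and bulbar muscular atrophy (SBMA). The labels give an age of 3 months, or 90 days, before motor dysfunction begins in these mice, and they add to AR113Q the letters NCD without explanation. For the controls the labels say WT, while the text of the study describes a knock-in strain that has a shorter repeat, and the sources used here do not settle which. The labels give no sex, and the reporting form of the study says that its mice were male. Nothing states whether the mice of a genotype shared a litter, so p-values measure the spread between these arrays.

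Each array held 43020 spots that were not controls, between 47.6% and 55.8% of the probes were well above background, and no spot was saturated (0 spots). All 8 skeletal muscle fiber markers were above background on every array. The arrays lay on 5 slides, and slide 2 alone carried WT and AR113Q RNA, that of WT replicate 2 and of AR113Q replicate 1. Values below are log2 signals: log2 of the background-subtracted spot intensity after quantile normalization. The intensity of different probes cannot be compared, so each gene is compared only with itself. A difference is the mean of AR113Q minus the mean of WT on that scale, given with its standard error (SE) and the adjusted p from limma over the 16577 genes tested. A gene is called higher or lower where the adjusted p is at most 0.05 and the log2 fold change is at least 1 in size.

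Of the 49 genes, 24 passed the filter, which asks for a probe well above background on 3 or more arrays, and were tested. The probe was above background on all 7 arrays for 13 of them and on 3 to 6 arrays for 11. Another 7 genes were above background on 1 or 2 arrays, and 18 on none. Most of the ligands were measurable (20 of 33) but few of the receptors (4 of 16). None of the 10 CC receptors passed the filter (0 of 10): Ccr7 and Ccr8 were above background on 1 array of each genotype, Ccr6 on 1 AR113Q array and Ccr9 on 1 WT array, while Ccr1, Ccr2, Ccr3, Ccr4 and Ccr10 were above background on none. The CXC receptors Cxcr1, of neutrophils, and Cxcr5, of B cells, were also above background on none. Among the ligands, Ccl1, Ccl3, Ccl4, Ccl20, Ccl22, Ccl26, Ccl28, Cxcl2, Cxcl3, Cxcl5 and Cxcl15 were above background on none, Cxcl10 on 2 WT arrays and Cxcl17 on 1 AR113Q array.

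**Figure D1:**
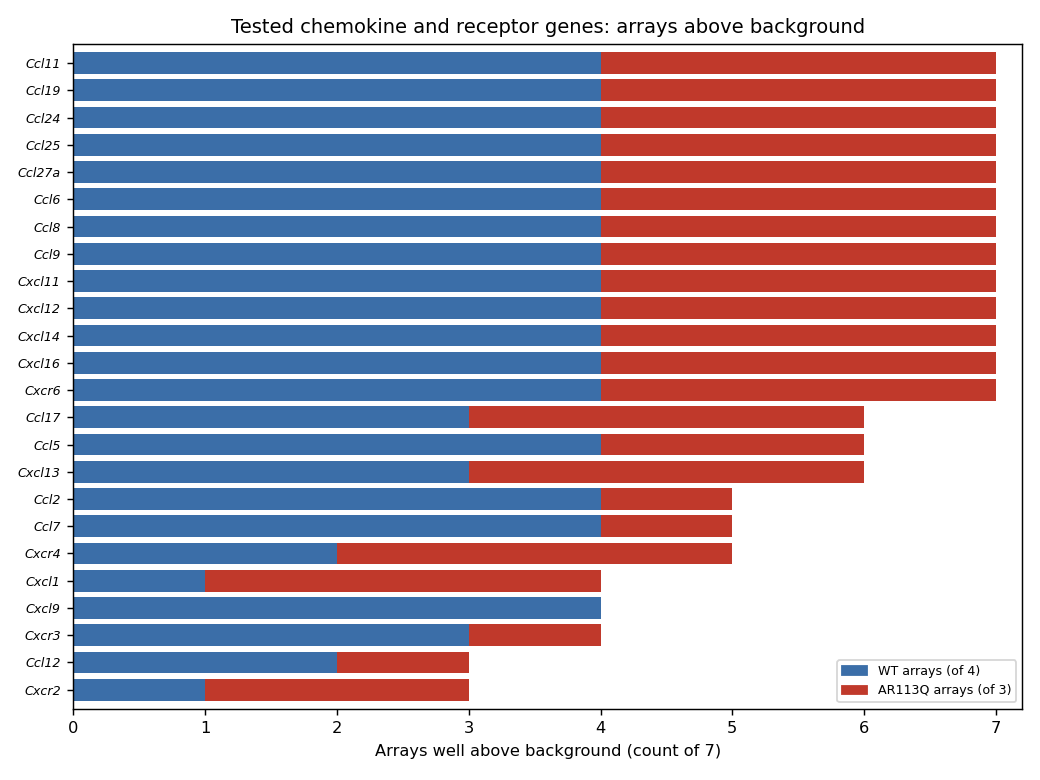
Number of arrays on which each of the 24 tested genes was well above background (x axis, count of 7), with WT arrays in blue and AR113Q arrays in red. The bar reaches 7 arrays for 13 genes, and Cxcl9 has no red part.

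In AR113Q muscle 8 of the 24 tested genes were lower and 0 were higher. The 8 were the CC ligands Ccl24, Ccl25, Ccl7 and Ccl8, the CXC ligands Cxcl9, Cxcl12 and Cxcl16, and the receptor Cxcr3. Among all 16577 genes, 13.1% were called lower and 11.2% were called higher. At an unadjusted p of at most 0.05 in the same limma test, 10 of the 24 had a negative and 1 a positive difference, where 26.6% and 24.9% of all genes did. At an adjusted p of at most 0.05 without a fold threshold, 9 of the 24 were lower and 0 were higher, where 22.6% and 21% of all genes were. The median log2 fold change of the 24 genes was -0.82 (-0.34 with normexp background correction and -0.49 without AR113Q replicate 1), and that of all genes was -0.012, with 15 of the 24 negative against 50.6% of all genes. Cxcl9 passed the filter through the WT arrays alone, and Ccl2, Ccl7 and Cxcr3 mostly so (1 AR113Q array each above background), so for these a lower AR113Q value is partly a condition of being tested. With a filter that asks for all 7 arrays, 5 of 13 genes were lower, and with no filter 5 of 49 were, where 11.5% and 6.82% of all genes were called lower.

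The 3 AR113Q arrays lay below all 4 WT arrays for 8 of the 24 genes (all genes: 25.1%), and above all of them for 1, Cxcr6 (all genes: 24.2%). The 8 without overlap were those called lower other than Ccl8, together with Ccl11. In a muscle extract, fewer cells of a kind and less RNA per cell cannot be told apart.

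**Figure D2:**
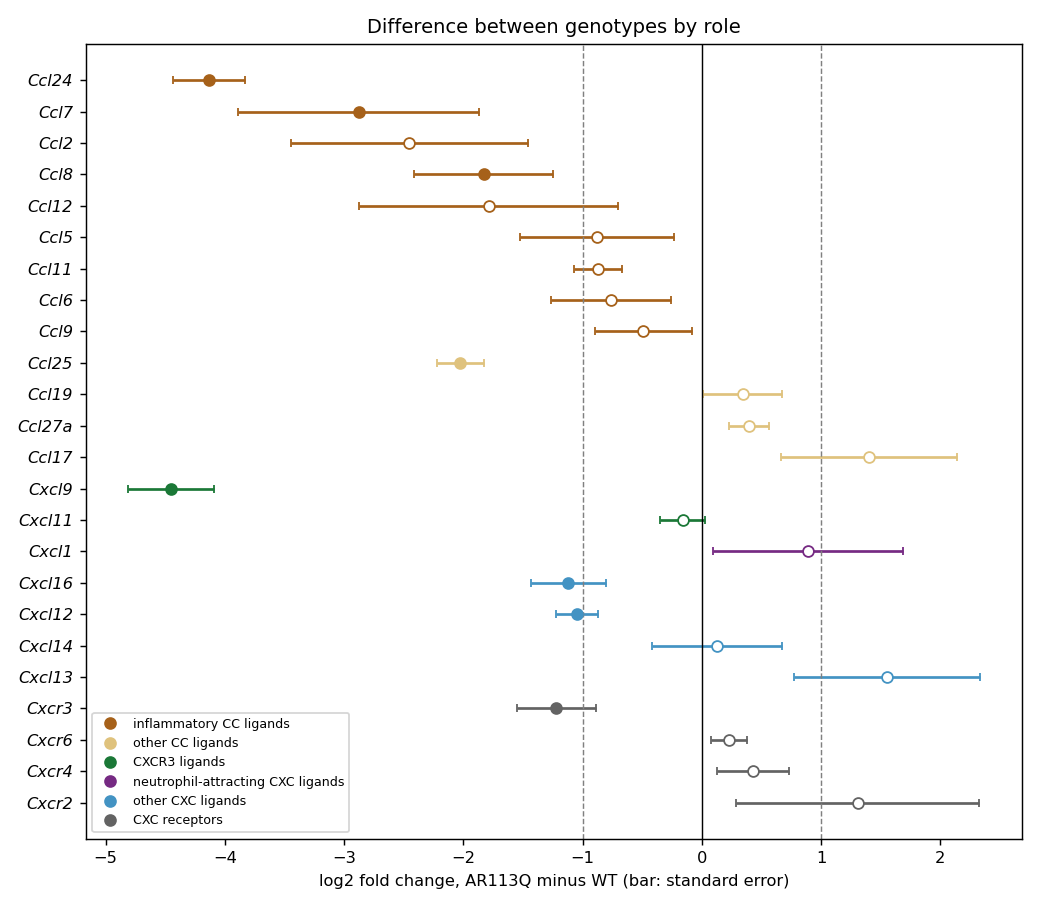
Log2 fold change (AR113Q minus WT, x axis) of the 24 tested genes, grouped by role with 1 colour per group; bars are standard errors, filled points are called lower and dashed lines mark a log2 fold change of -1 and 1. The inflammatory CC ligands, at the top, all lie left of 0, from -4.13 for Ccl24 to -0.49 for Ccl9, and the size for Cxcl9 is not measured, since its AR113Q arrays were not above background.

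The bases before the start sites of the 8 genes called lower were read, without a test of whether these genes change jointly. The table of RefSeq promoters (GRCm38.p6) held 5 of the 8 genes. Shown are the 250 bases upstream of the start of Cxcl9, a gene induced by interferon gamma, of Ccl8, an inflammatory ligand, and of Cxcl12, a constitutively expressed ligand, each on its own strand. Capitals mark the letters TATAAA of a box near many starts, the Sp1 motif GGGCGG and the core of androgen response elements, AGAACA, on either strand:

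Cxcl9 (chr5:92328080-92328329, minus strand): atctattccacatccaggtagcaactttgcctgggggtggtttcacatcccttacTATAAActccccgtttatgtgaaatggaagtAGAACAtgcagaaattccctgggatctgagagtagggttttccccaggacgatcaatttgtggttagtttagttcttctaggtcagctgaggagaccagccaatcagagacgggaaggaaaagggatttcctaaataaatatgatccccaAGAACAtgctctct

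Ccl8 (chr11:82114935-82115184, plus strand): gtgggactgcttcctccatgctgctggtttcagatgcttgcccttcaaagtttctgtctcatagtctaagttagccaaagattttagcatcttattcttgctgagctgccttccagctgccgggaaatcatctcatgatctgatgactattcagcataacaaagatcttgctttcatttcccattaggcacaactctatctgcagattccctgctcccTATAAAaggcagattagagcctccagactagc

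Cxcl12 (chr6:117168285-117168534, plus strand): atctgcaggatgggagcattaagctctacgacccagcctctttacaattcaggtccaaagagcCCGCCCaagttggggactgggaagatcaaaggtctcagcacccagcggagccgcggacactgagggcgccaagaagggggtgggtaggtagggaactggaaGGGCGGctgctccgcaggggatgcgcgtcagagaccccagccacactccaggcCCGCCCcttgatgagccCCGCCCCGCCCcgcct

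Cxcl9 had a TATAAA whose first base lay 195 bases before the start and AGAACA at 164 and 14 bases before it. Ccl8 had TATAAA at 32 bases before the start, the usual place of this box. Cxcl12 had no TATAAA but held GGGCGG in 5 places, of which the last 2 share 1 base, and its 250 bases were 64.4% G or C against 44.8% for Ccl8. Ccl25 has 2 starts in the table. The second, in 250 bases of 51.6% G or C, had TATAAA at 16 bases, and the other, of 74.8% G or C, held none of the motifs. Cxcr3 held none. An interferon motif, TTCNNNGAA, and the kappaB consensus of NF-kappaB, also searched on both strands, occurred in none of these windows (0 hits). Other interferon elements were not searched, so the windows may still hold such sites. In all 32851 promoter windows of this length the shares were 12.4% for TATAAA, 32.7% for GGGCGG, 16.1% for AGAACA, 7.02% for TTCNNNGAA and 7.25% for the kappaB consensus. In the 38 windows of the 34 members in the table they were 23.7%, 15.8%, 18.4%, 7.89% and 26.3%, the last in 10 genes including Cxcl1, Cxcl10 and Ccl9. These matches describe letters and not binding.

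The inflammatory CC ligands are induced in macrophages and stromal cells and recruit myeloid cells. Ccl24, or eotaxin-2, attracts eosinophils through Ccr3 and is made by alternatively activated macrophages. Its log2 signal was 9.48, 9.14, 8.42 and 8.78 on the 4 WT arrays and 5.09, 5.06 and 4.31 on the 3 AR113Q arrays. Every AR113Q array lay far below every WT array, and the probe was above background on all 7. The difference was -4.13 (SE 0.30, adjusted p = 0.000108), a 17.5-fold lower background-subtracted signal, and the 2 arrays of slide 2 gave -4.05. The size depended on the background correction, while the call did not. It was -2.33 with normexp correction (adjusted p = 4.07e-05), -2.45 with the mean spot intensity without subtraction (3.49e-05) and -1.84 with the authors' normalized values (0.000315). The other eotaxin, Ccl11, was 7.96, 8.62, 8.15 and 8.50 in WT and 7.28, 7.44 and 7.60 in AR113Q muscle. These did not overlap either, and Ccl11 passed on p but not on size, with a difference of -0.87 (SE 0.20, adjusted p = 0.00983). Their receptor Ccr3 was not above background on any array, and neither was the other eotaxin Ccl26.

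The monocyte chemoattractants Ccl2, Ccl7, Ccl8 and Ccl12 varied between arrays of the same genotype. Ccl7 was 5.02, 5.38, 5.34 and 9.11 on the WT arrays and 2.52, 4.69 and 2.80 on the AR113Q arrays. WT replicate 4 stood far above the other WT arrays, the genotypes did not overlap, and only AR113Q replicate 2 was above background among the AR113Q arrays. The difference was -2.88 (SE 1.01, adjusted p = 0.0488). It no longer passed without WT replicate 1 (adjusted p = 0.0504), 2 (0.0633) or 3 (0.0568) or without AR113Q replicate 1 (0.155) or 3 (0.121). Without WT replicate 4 it was -1.91 and passed. It was not called with normexp correction (-0.84, adjusted p = 0.178), without background subtraction (-0.87, 0.181) or with the authors' values (-0.56, 0.284).

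Ccl8, which binds Ccr8 in the mouse, was 10.43, 9.94, 8.36 and 10.89 in WT and 7.78, 8.84 and 7.60 in AR113Q muscle. The genotypes overlapped, since WT replicate 3 lay below AR113Q replicate 2. The difference was -1.83 (SE 0.59, adjusted p = 0.0352), and it did not pass without WT replicate 1 (adjusted p = 0.0834), 2 (0.0706) or 4 (0.0753) or without AR113Q replicate 1 (0.108) or 3 (0.0985). Ccl2, the main ligand of Ccr2, was 6.33, 6.82, 5.83 and 8.79 in WT and 3.81, 6.80 and 2.86 in AR113Q muscle. Here AR113Q replicate 2 reached the level of WT replicate 2, and the difference of -2.45 (SE 0.99) had an adjusted p of 0.0778. Without AR113Q replicate 2 it was -3.61 and passed (adjusted p = 0.0121), and without replicate 3 of that genotype it was -1.64 (0.229). It was -0.81 with normexp correction, -0.84 without background subtraction and -0.44 with the authors' values, not called in any of the 3. Ccl12, also a Ccr2 ligand, was 3.46, 5.10, 3.68 and 7.62 in WT and 1.80, 4.97 and 2.76 in AR113Q muscle, with a difference of -1.79 (SE 1.09, adjusted p = 0.217). It was -0.90 without WT replicate 4 and -2.68 without AR113Q replicate 2, and passed in neither case, and it was -0.44 both with normexp correction and without background subtraction. WT replicate 4 and AR113Q replicate 2 again held the highest value of their genotype. Ccr2 itself was above background on no array.

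The other inflammatory CC ligands were not called. Ccl5, a T cell product that acts through Ccr1 and other receptors, was 7.42, 6.67, 7.21 and 6.71 in WT and 4.55, 7.77 and 6.04 in AR113Q muscle, where replicate 2 held the highest value of all 7 arrays. Its difference was -0.88 (SE 0.65, adjusted p = 0.301), and without AR113Q replicate 2 it was -1.70 and passed (adjusted p = 0.0214). Without AR113Q replicate 1 it was -0.096 (adjusted p = 0.894). Ccl6, a myeloid chemokine of rodents, was 11.66, 11.84, 10.40 and 12.65 in WT and 10.49, 11.59 and 10.54 in AR113Q muscle. The genotypes overlapped, and the difference was -0.76 (SE 0.51, adjusted p = 0.255). Without WT replicate 3 it was -1.17 and passed (adjusted p = 0.0463), and without WT replicate 4 it was -0.42 (adjusted p = 0.495). Ccl9, its relative, differed by -0.49 (SE 0.41). In all, 3 of the 9 tested genes of this group were lower, and all 9 differences were negative, with a median of -1.79, where 13.1% of all genes were called lower and 50.6% had a negative difference. The median was -0.98 without WT replicate 4, -1.10 without AR113Q replicate 1 and -0.70 with normexp background correction.

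**Figure D3:**
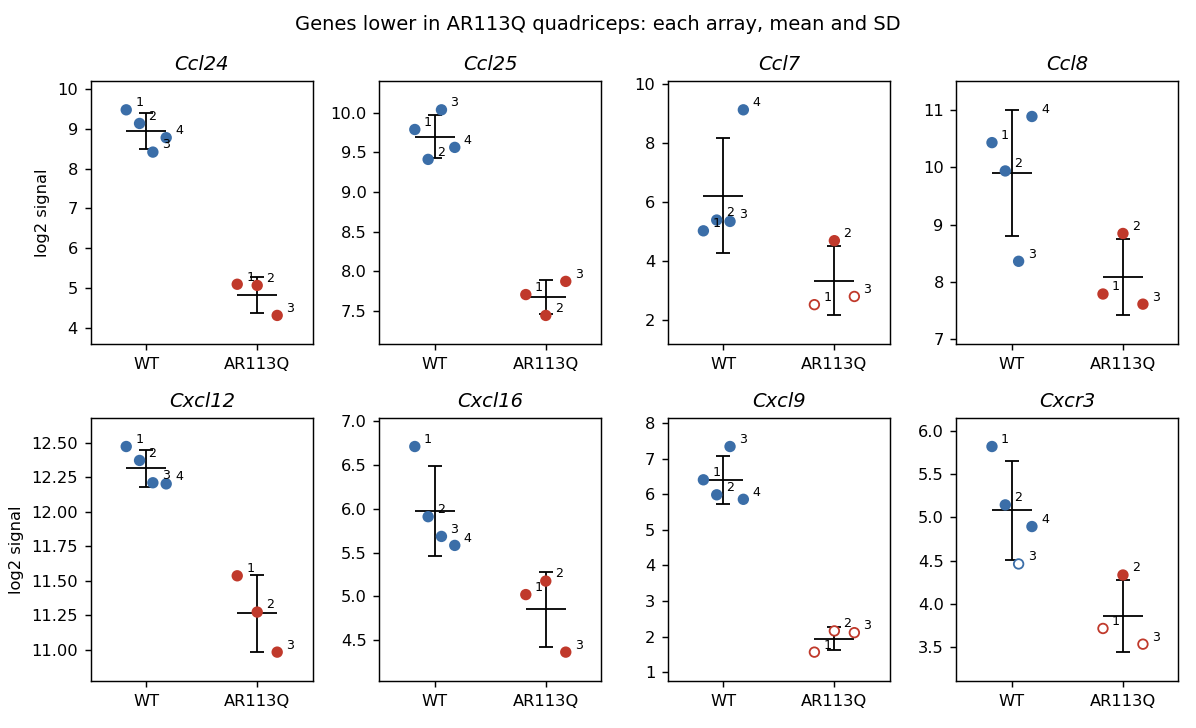
Log2 signal (y axis, its own range in each panel) of the 8 genes called lower on the 4 WT (blue) and 3 AR113Q (red) arrays, numbered by replicate; open circles are not well above background, and bars give the mean and SD. The genotypes are separate in every panel except that of Ccl8, and the spread is widest for Ccl7, where WT replicate 4 reads 9.11.

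These genes lie in groups on the chromosomes. Probe positions of the array annotation (mm9) put Ccl2, Ccl7, Ccl11, Ccl12, Ccl8 and Ccl1 in 1 run on chromosome 11, from 81850650 to 81990227. The 5 of them that were tested differed by between -2.88 and -0.87, and 2 were called lower. Ccl5, Ccl9, Ccl6, Ccl3 and Ccl4 formed a second run, from 83339296 to 83478111, where 3 were tested, 0 were called, and the differences lay between -0.88 and -0.49. On chromosome 5, Cxcl9, Cxcl10 and Cxcl11 lay between 92752191 and 92788626, and the neutrophil ligands Cxcl5, Cxcl3, Cxcl15, Cxcl1 and Cxcl2 between 91190490 and 91334593, of which only Cxcl1 was tested.

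The homeostatic CC ligands did not move together. Ccl25, which guides thymocytes and gut T cells through Ccr9, was 9.79, 9.41, 10.04 and 9.56 in WT and 7.71, 7.45 and 7.87 in AR113Q muscle. The genotypes were far apart with little spread in either. The difference was -2.02 (SE 0.20, adjusted p = 0.000281), a 4.07-fold lower signal, and -1.70 between the arrays of slide 2. Its probe lies on chromosome 8 from 4359916 to 4359975 (mm9). The second probe, from 4327833 to 4327892, gave -1.17 (SE 0.45, adjusted p over probes = 0.0626) with 1 of 3 AR113Q arrays above background, and another was above background on none. A transcript listed as LOC108167518 overlaps Ccl25 in the RefSeq table.

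Ccl17, a ligand of Ccr4 on helper T cells, was 4.20, 5.19, 1.54 and 4.10 in WT and 5.29, 4.90 and 5.30 in AR113Q muscle. WT replicate 3, not above background, stood low, and the difference of 1.40 (SE 0.74) had an adjusted p of 0.159. It was 0.66 without that array and 0.10 between the arrays of slide 2. Ccl19, the ligand of Ccr7 that guides dendritic cells, and Ccl27a, the skin ligand of Ccr10, gave 0.34 (SE 0.33) and 0.39 (SE 0.17), but their probes disagreed in sign. The other 2 probes named Ccl19 gave -0.29 and -0.43, and the other 2 of Ccl27a gave -0.51 and -0.35, all without passing. The 3 Ccl19 probes map to separate places on chromosome 4 (41740584, 41941813 and 42769865), where near-identical copies of Ccl19 and Ccl27 genes lie, and Ccl27a overlaps Il11ra1, so these values cannot be given to 1 gene.

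Among the interferon-induced ligands of Cxcr3, Cxcl9 was measured in WT muscle but not in AR113Q muscle. It was 6.41, 5.98, 7.34 and 5.86 on the WT arrays and 1.57, 2.16 and 2.11 on the AR113Q arrays. All 4 WT arrays were above background and none of the 3 AR113Q arrays was (0 of 3), so only a bound is known. The measured means were 6.40 and 1.95, and Cxcl9 was at least 6.86-fold lower in AR113Q muscle (adjusted p = 0.000148) when the AR113Q arrays are set at the lowest signal that counts as above background. On the AR113Q arrays 3.41% to 6.93% of the probes not above background lay over that lowest signal, and with a floor at their 95th percentile, chosen after seeing the data, the bound was 6.81-fold. The second probe for Cxcl9 was above background on 3 WT arrays and on 0 AR113Q arrays. Cxcl9 was also called with normexp correction (-1.11) and without background subtraction (-1.12), on scales that add an offset to every signal or keep the background in it. From the values normalized by the authors the difference was -0.64 (adjusted p = 0.00952) and did not reach the fold threshold.

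Cxcl10 was above background on 2 WT arrays only and was not tested. Cxcl11 differed by -0.16 (SE 0.19, adjusted p = 0.524). The RefSeq table lists Cxcl11 as a transcribed pseudogene inside the span of Art3, a gene expressed in muscle, so the 2 signals may not be separate. Art3 differed by 0.84 (SE 0.18, adjusted p = 0.00724). The receptor Cxcr3, found on activated T and NK cells, was 5.82, 5.15, 4.46 and 4.90 in WT and 3.72, 4.33 and 3.53 in AR113Q muscle. There was no overlap, though the lowest WT and the highest AR113Q array were close, and the probe was above background on 3 WT arrays and 1 AR113Q array. The difference was -1.22 (SE 0.33, adjusted p = 0.0193). It did not pass without WT replicate 1 (-0.97, adjusted p = 0.0335), nor without AR113Q replicate 1 (adjusted p = 0.0634) or 3 (0.0576). It was not called with normexp correction (-0.27, adjusted p = 0.190), without background subtraction (-0.28, 0.198) or with the authors' values (-0.14, 0.281).

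Cxcl12 is the constitutive ligand of Cxcr4 and of the scavenging receptor Ackr3, and it holds hematopoietic and muscle progenitor cells in place. Its log2 signal was 12.47, 12.37, 12.21 and 12.20 in WT and 11.54, 11.27 and 10.98 in AR113Q muscle. The arrays of each genotype were close together and the genotypes well apart. The difference was -1.05 (SE 0.18, adjusted p = 0.00239), near the fold threshold. It was -0.996 without WT replicate 1 and -0.91 without AR113Q replicate 3, in both cases with a low adjusted p (0.00940 and 0.00518). A second probe gave -1.24 (SE 0.27, adjusted p over probes = 0.00674). Cxcr4 was 4.19, 4.32, 3.43 and 4.74 in WT and 4.62, 4.84 and 4.34 in AR113Q muscle, a difference of 0.43 (SE 0.30, adjusted p = 0.276), and Ackr3 differed by -0.22 (SE 0.27, adjusted p = 0.545).

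Cxcl16, a membrane-bound ligand of macrophages, was 6.71, 5.91, 5.68 and 5.58 in WT and 5.02, 5.17 and 4.36 in AR113Q muscle. The genotypes did not overlap, and WT replicate 1 was highest. The difference was -1.12 (SE 0.32, adjusted p = 0.0217), and it was below the threshold without WT replicate 1 (-0.87, adjusted p = 0.0337) and without AR113Q replicate 3 (-0.87, adjusted p = 0.0630). With normexp correction it was -0.37 (adjusted p = 0.0407), without background subtraction -0.31 (0.0781) and with the authors' values -0.21 (0.0749), and it was not called in any of these 3 fits. In the RefSeq table Zmynd15 overlaps Cxcl16, as Fyco1 overlaps Cxcr6. The receptor of Cxcl16, Cxcr6 of resident lymphocytes, lay between 5.49 and 5.68 in WT and between 5.72 and 6.04 in AR113Q muscle, a small difference of 0.23 (SE 0.15, adjusted p = 0.251) without overlap. It turned to -0.0015 when arrays were scaled to their 75th percentile. Cxcl14, a homeostatic ligand, was 13.35, 13.39, 13.16 and 13.67 in WT and 12.02, 14.75 and 13.78 in AR113Q muscle. The 3 AR113Q arrays lay on both sides of the WT arrays, and the difference of 0.13 (SE 0.55) turned to -0.49 without AR113Q replicate 2 and to -0.0060 without AR113Q replicate 3.

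The differences of Cxcl13, Cxcl1 and Cxcr2 were positive but did not pass the test. Cxcl13, the ligand of Cxcr5, was 5.73, 6.42, 4.06 and 7.05 in WT and 8.14, 8.09 and 5.87 in AR113Q muscle. AR113Q replicate 3 fell among the WT arrays, and the difference was 1.55 (SE 0.78, adjusted p = 0.143). Without AR113Q replicate 3 it was 2.30 and passed (adjusted p = 0.0415), and without WT replicate 3 it was 0.97 (adjusted p = 0.269). Cxcl1, a ligand of Cxcr2, was 2.66, 2.41, 2.83 and 5.79 in WT and 4.88, 3.49 and 4.57 in AR113Q muscle. Cxcr2, the receptor of neutrophils, was 1.45, 1.44, 1.44 and 5.57 in WT and 2.80, 4.12 and 4.43 in AR113Q muscle. WT replicate 4 was the only WT array above background for either gene, and it was the highest of all 7. The differences were 0.89 (SE 0.80, adjusted p = 0.395) for Cxcl1 and 1.31 (SE 1.02, adjusted p = 0.330) for Cxcr2. Without WT replicate 4 both passed (adjusted p = 0.0110 and 0.00495), but then no WT array was above background for either gene (0 of 3), so the sizes are not measured.

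**Figure D4:**
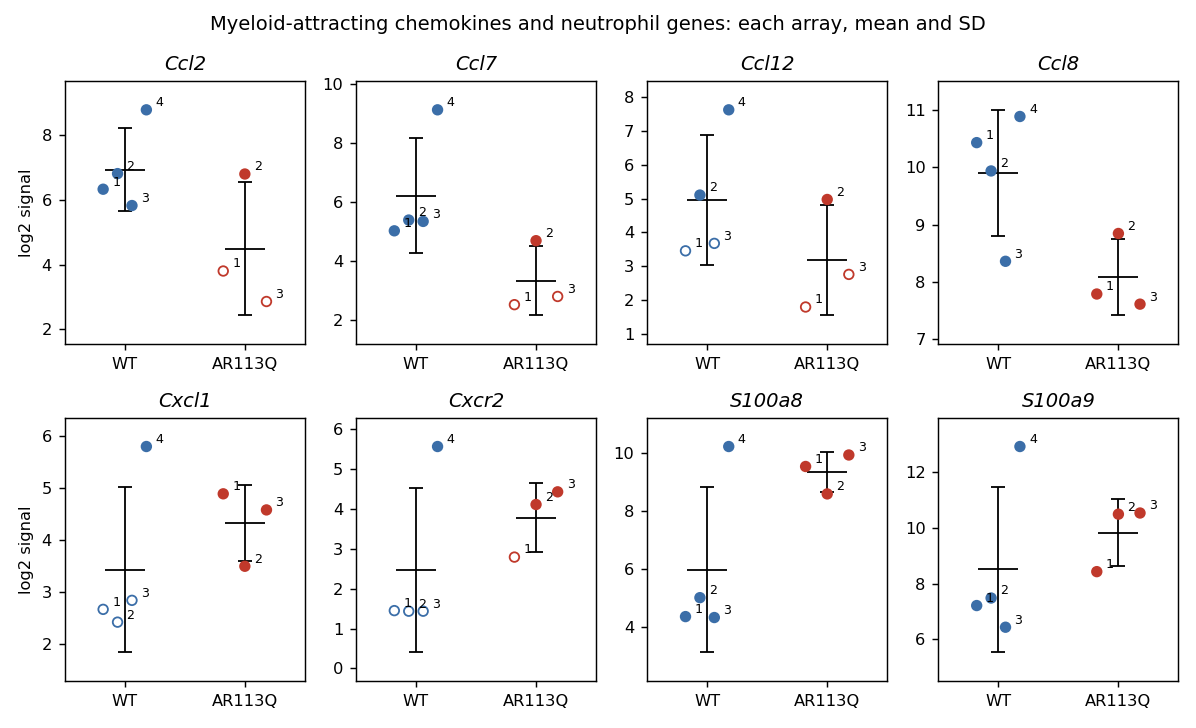
Log2 signal (y axis, its own range in each panel) of 4 monocyte chemoattractants, Cxcl1, Cxcr2 and the neutrophil genes S100a8 and S100a9 on each WT (blue) and AR113Q (red) array, numbered by replicate; open circles are not well above background, and bars give the mean and SD. WT replicate 4 is the highest WT array in all 8 panels, and AR113Q replicate 2 is the highest AR113Q array for Ccl2, Ccl7, Ccl12 and Ccl8.

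WT replicate 4 was the highest WT array for 13 of the 24 genes, and AR113Q replicate 2 the highest AR113Q array for 14. The same count was not made over all genes, so whether it is particular to chemokines is not known. The marker lists of leukocytes give values on the same arrays. A summed intensity rests mostly on a few bright probes of its list. Averaged over the arrays, Csf3r made 81.4% of the sum for monocytes and neutrophils, H2-Ab1 made 79.5% for dendritic cells and Fabp4 made 79.7% for adipocytes. S100a8, a calgranulin of neutrophils, was 4.37, 5.02, 4.33 and 10.21 in WT and 9.52, 8.58 and 9.92 in AR113Q muscle, a difference of 3.36 (SE 1.35, adjusted p = 0.0755). Of the 4 monocyte and neutrophil markers tested, 0 were called, and their summed normalized intensity was 8950 to 17300 in WT, with the highest in replicate 4, where S100a9 was 12.93 against 6.43 to 7.48 on the other WT arrays, and 10200 to 14500 in AR113Q muscle. Their part in the values of Cxcl1, Cxcr2 and the monocyte chemoattractants was not tested.

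Of the 12 macrophage markers, all tested, 2 were lower, Adgre1 (-1.94, adjusted p = 0.00158) and Csf1r (-1.15, adjusted p = 0.00970), and 2 were higher, Cd14 (1.42, adjusted p = 0.00149) and Cd163 (1.18, adjusted p = 0.0101). Adgre1 and Csf1r are expressed by most tissue macrophages, Cd14 and Cd163 by some of them. Their summed intensity was 10300 to 17100 in WT and 8710 to 12100 in AR113Q muscle. Dendritic cell markers were lower in 3 of 6 tested genes, Itgax, Cd209a and H2-Ab1, with sums of 4360 to 8970 and 1640 to 5700. Mast cell and eosinophil markers were lower in 2 of 5, Mcpt4 and Cma1, with sums of 1230 to 2620 and 381 to 1470, and the eosinophil gene Epx was above background on no array. Lymphocytes are rare in healthy muscle, and many of their markers were not measurable. Of 10 T and NK cell markers 4 were tested and Cd2 was lower (-1.86, adjusted p = 0.00600), above background on 4 WT arrays and 1 AR113Q array. Cd3d, Cd8a, Ncr1 and Klrb1c were above background on none, and the sums were 367 to 560 and 292 to 418. Of 3 tested B cell markers 1 was lower, the sums were 98.4 to 112 and 48.9 to 89.8, and Ms4a1 and Pax5 were above background on none. 

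Stromal cells are a main source of Cxcl12. Fibroblast markers were lower in 5 of 8 (Col3a1 -4.62, Col1a1 -3.27 and Pi16 -2.98, with Lum and Col1a2), with sums of 112000 to 140000 and 76100 to 109000. The markers not called were Dcn (0.41, adjusted p = 0.0692), Pdgfra (-0.27, 0.424) and Dpt (-0.96, 0.017). Dcn made 61.9% of the sum averaged over the arrays, and all its AR113Q values lay above all its WT values. Blood endothelial markers were lower in 2 of 8, Cd34 and Vwf, with sums of 11900 to 14300 and 5560 to 7180. Averaged over the arrays, Cd34 made 44.7% of this sum. Pecam1 differed by 0.60 (adjusted p = 0.0185) and Tie1 by 0.022. Cdh5 differed by -0.22, Emcn by -0.031, Kdr by -0.42 and Tek by -0.41, and none of these was called. Lymphatic endothelial markers were lower in 0 of 4, with sums of 1280 to 1690 and 775 to 1600. Adipocyte markers were lower in 4 of 6, led by Adipoq (-2.71), with sums of 33400 to 49100 and 28700 to 29200. Muscle fiber markers were lower in 1 of 8, Mylpf, with sums of 838000 to 995000 and 718000 to 882000. These counts stand beside 13.1% of all genes called lower, and the part of these cells in the lower chemokine values was not tested.

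Genes that act with the chemokines were taken from lists. Of the 10 tested genes among the other chemokine ligands and receptors, 4 were lower and 0 were higher, with a median log2 fold change of -0.58, beside 13.1% and 11.2% of all genes. These were Pf4, a platelet chemokine (-2.75, adjusted p = 0.000421), Ppbp, also of platelets (-2.14, adjusted p = 0.0367), Ackr4, a scavenger of Ccl19 and Ccl25, and Cx3cr1, the fractalkine receptor of macrophages. Ppbp was above background on 4 WT arrays but on 1 AR113Q array, so its size is uncertain. Its WT replicate 4 read 8.04, against 4.97 to 5.48 on the other WT arrays. Neither Ackr4 nor Cx3cr1 was above background on any AR113Q array (0 of 3 each), so both passed the filter through the WT arrays alone, which made a lower AR113Q value partly a condition of being tested. Ackr4 was at least 2.64-fold lower (adjusted p = 0.000615) and Cx3cr1 at least 2.12-fold lower (adjusted p = 9.13e-05), by the same bound as for Cxcl9. Of 24 tested genes of chemokine receptor signaling, 3 were lower, among them Rac2 (-1.84) and Arrb1 (-1.48), and 2 were higher, Rgs2 (1.49) and Rgs1, which was above background on 0 WT arrays and at least 1.92-fold higher (adjusted p = 0.00433), having passed the filter through the AR113Q arrays alone. These counts are to be read against the same shares of all genes. Rgs proteins shorten signaling by G proteins.

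Of 17 tested genes that induce chemokine transcription, 6 were higher and 2 were lower, with a median of 0.63, where 11.2% of all genes were called higher and 13.1% lower. The higher genes included Il6 (at least 2.50-fold higher, adjusted p = 0.00589, above background on 0 WT arrays and so tested through the AR113Q arrays alone), Stat3 (1.48, adjusted p = 0.00113) and Tlr4 (1.45, adjusted p = 0.00220), besides Myd88, Rela and Nfkbia, which encodes an inhibitor of NF-kappaB. The lower ones were Ltb (-1.27, adjusted p = 0.0278) and Irf1, an activator of interferon-induced genes (-1.03, adjusted p = 0.00364). Tnf and Ifng, the main inducers of Ccl2 and of Cxcl9, were above background on no array. Of 13 tested genes of chemokine binding and processing, 4 were lower and 1 was higher. Dpp4, the protease that inactivates Cxcl12 and Cxcl9, was lower (-2.32, adjusted p = 0.000176), as were the heparan sulfate carriers Sdc2 (-1.50), Hspg2 (-1.35) and Sdc1 (-1.19), while Sdc4 was higher (1.92, adjusted p = 0.00396).

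Of the 8 genes called lower, Ccl24 and Ccl25 were lower in each of the 7 fits with 1 array left out, and so was Cxcl9. The counts of lower genes in these fits ranged from 3 (without WT replicate 1 and without AR113Q replicate 3) to 10 (without AR113Q replicate 2), and 5 were lower without AR113Q replicate 1. When slide was a fixed effect, so that slide 2 alone gave the difference, limma called 0 of all 16556 genes. In that fit 9 of the 24 were lower by an unadjusted p of at most 0.05, where 19.8% of all genes were, and Ccl24 had a difference of -4.05. The difference in that fit was 1 mouse against 1 mouse, and each gene's own spread came only from WT replicates 3 and 4 on slide 4. Its p-values therefore do not measure the spread between AR113Q mice. Neither the 0 calls nor the count of 9 can decide whether the genotypes differ. All 8 genes had lower values in AR113Q replicate 1 than in WT replicate 2 on slide 2, the smallest difference being that of Cxcl12 (-0.83).

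**Figure D5:**
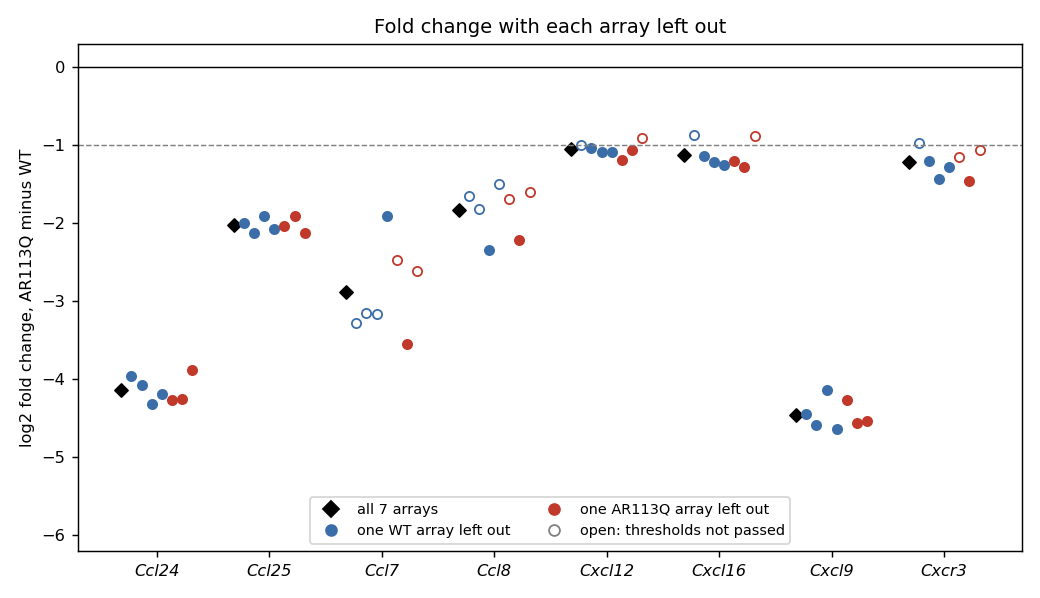
Log2 fold change (AR113Q minus WT, y axis) of the 8 genes called lower with all 7 arrays (black diamonds) and with 1 WT (blue) or 1 AR113Q (red) array left out; open circles do not pass both thresholds, and the dashed line is a log2 fold change of -1. Ccl24, Ccl25 and Cxcl9 stay filled throughout, and the other 5 genes each have open circles.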

How the data were processed

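Total RNA from quadriceps was labelled with Cy3 and hybridized by the authors to Agilent 4x44K mouse arrays, and spots were read with Feature Extraction 10.7.3.1 (per the submitters' processing notes). The authors deposited, per spot, a background-subtracted intensity not normalized between arrays, with the mean intensity and local background, and also a table of 18592 probes as log2 values, quantile normalized per the methods. Low signals depend most on background subtraction. Here log2 intensities were quantile normalized after outlier spots and controls were left out. Spots of a probe were averaged, a probe was kept if well above background on 3 or more arrays, and a gene was represented by its kept probe of highest mean. Names came through RefSeq accessions (GRCm38.p6, 28330 probes matched) or else from the scanner files. The comparison used lmFit and eBayes of limma 3.58.1 (R 4.3.3) with Benjamini-Hochberg adjustment, tested on simulated data. The members and lists were chosen with earlier results of these data known. All tested members are named, with values on each array for called members and for some others. A few measured genes are left out of the text. Replicate numbers did not pair the samples (correlations 0.0367, -0.0212 and 0.156).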

Additional observations from a re-analysis of the deposited data

Results flagged for a closer look

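Among the 4 WT arrays, the highest or lowest value of each of the 24 tested genes was compared with Dixon's critical value for 4 arrays, and 3 genes exceeded it. Chance alone does so for about 1 in 20 such groups. In all 3 cases the value was the highest and belonged to WT replicate 4. Ccl7 was 9.11 there on the log2 scale (gap 0.911 of the range), Cxcl1 was 5.79 (0.876) and Cxcr2 was 5.57 (0.997). For Cxcl1 and Cxcr2 the other 3 WT arrays were not above background, so their gaps rest on values that are not measured levels. The AR113Q group of 3 arrays was not examined in this way.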

How the results depend on the processing

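The number of genes called lower was 8. It was 5 with normexp background correction, 5 with the mean spot intensity without background subtraction and 4 with the authors' normalized values (19 genes tested), where the share of all genes called lower also fell, from 13.1% to 5.67%, 6.18% and 4.98%. It was 5 with no filter, 5 with a filter on all 7 arrays, 4 with array weights and 0 with slide as a fixed effect. With 1 array left out it ranged from 3 to 10, and the number called higher from 0 to 2. The replicate block gave 8 lower and 3 higher genes (Cxcl1, Cxcl13 and Cxcr2), but WT replicate 4 has no partner and adds nothing to that fit, and leaving it out alone gave 2 higher. Without WT replicate 4 and AR113Q replicate 2 together, a setting chosen after seeing the data, 9 were lower and 2 higher. Ccl24 and Ccl25 were called in 20 of 21 fits, Cxcl9 in 18 of 20, Cxcl12 in 17 of 21, Cxcl16 in 13 of 21, Ccl8 in 12 of 21, Cxcr3 in 11 of 20 and Ccl7 in 8 of 20, all with a negative value throughout. The values that changed sign belonged to 4 genes that were not called. Ccl19 was -0.12 with the mean over kept probes, -0.12 with slide as a fixed effect or within slide 2, and it lay between -0.014 (without AR113Q replicate 2) and 0.55 with 1 array left out. Ccl27a was -0.16 with the mean over kept probes. Cxcl14 was -1.36 with slide as a fixed effect or within slide 2. It was -0.49 without AR113Q replicate 2, -0.0060 without AR113Q replicate 3 and at most 0.87 with 1 array left out. Without WT replicate 4 and AR113Q replicate 2 together it was -0.40. Cxcr6 was -0.0015 with the 75th percentile. The cause of these changes was not tested. The 7 arrays limit precision, and genes near background have uncertain log2 differences.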

Other observations

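Some members that were not tested still gave values on single arrays. Ccr7, the receptor of Ccl19 on T and dendritic cells, was above background on WT replicate 2 (4.79 on the log2 scale) and AR113Q replicate 2 (4.26).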
